A study of Mus musculus with 4 samples.

Results

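A set of 10 genes, Sned1, Abi3bp, Ngfr, Adra1b, Tspan13, Astn1, Abat, A4galt, Caprin2 and Aff3, was followed in MC3T3-E1 cells. They were chosen by their array signal, which was lower in cells grown in osteogenic medium. They are 10 of the 18193 genes on the array, and all 16 of their probe sets were examined. The difference between media chose these genes, so its values are given as a description and carry no test. MC3T3-E1 is an established preosteoblast line from the calvaria, or skull cap, of newborn C57BL/6 mice. Total RNA was hybridised to 4 Affymetrix Mouse Genome 430 2.0 arrays. They held cells at day 6 in osteogenic medium and in normal medium, and cells at day 3 in osteogenic medium and in normal medium. Normal medium was MEM α with 10% fetal bovine serum at 37 °C, and osteogenic medium added to this 10 mM beta-glycerophosphate and 150 µM ascorbic acid 2-phosphate. Both supplements were added together, so their separate parts cannot be told apart. There was 1 array per group, so no difference has an error from replicate cultures.

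Ascorbate lets cells hydroxylate and secrete collagen, and beta-glycerophosphate is a phosphate donor for mineral. Osteoblasts given both pass from growth to matrix deposition and mineralisation. The 10 genes do not form 1 pathway. Sned1 and Abi3bp encode proteins of the extracellular matrix. Ngfr and Adra1b encode cell surface receptors, and Tspan13 and Astn1 encode other membrane proteins. Abat and A4galt encode enzymes, and Caprin2 and Aff3 encode intracellular regulators.

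Promoter sequences from RefSeq (GRCm38.p6), each running from 250 bases before to 50 after a gene's start, were matched by symbol for 8 of the 10 genes, with 2 starts for Adra1b. No entry was matched for Abi3bp and Abat. The sequences of 4 are shown because these genes, lowered together, differ widely in base composition. They are given 5′ to 3′ on the gene's strand, and capitals mark the GC box GGGCGG, or CCGCCC where it lies on the opposite strand.
Sned1, chr1:93235647-93235946, plus strand: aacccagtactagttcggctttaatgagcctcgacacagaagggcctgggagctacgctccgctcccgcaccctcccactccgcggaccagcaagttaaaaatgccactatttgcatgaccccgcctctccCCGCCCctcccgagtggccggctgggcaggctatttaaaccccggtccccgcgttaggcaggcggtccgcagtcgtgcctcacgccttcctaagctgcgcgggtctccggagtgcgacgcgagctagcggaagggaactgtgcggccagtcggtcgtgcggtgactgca
Ngfr, chr11:95587649-95587948, minus strand: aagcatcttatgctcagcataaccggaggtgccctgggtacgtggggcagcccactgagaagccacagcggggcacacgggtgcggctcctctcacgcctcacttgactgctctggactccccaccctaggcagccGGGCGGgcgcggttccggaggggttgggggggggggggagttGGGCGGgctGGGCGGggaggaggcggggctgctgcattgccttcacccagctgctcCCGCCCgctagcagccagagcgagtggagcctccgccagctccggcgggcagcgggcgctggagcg
Aff3, chr1:38627195-38627494, minus strand: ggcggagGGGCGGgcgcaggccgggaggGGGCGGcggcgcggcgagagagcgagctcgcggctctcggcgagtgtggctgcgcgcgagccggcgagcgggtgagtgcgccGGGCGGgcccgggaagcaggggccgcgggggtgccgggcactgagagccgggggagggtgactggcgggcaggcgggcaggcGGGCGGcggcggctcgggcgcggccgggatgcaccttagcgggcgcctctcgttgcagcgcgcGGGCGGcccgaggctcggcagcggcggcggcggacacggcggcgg
Astn1, chr1:158362054-158362353, plus strand: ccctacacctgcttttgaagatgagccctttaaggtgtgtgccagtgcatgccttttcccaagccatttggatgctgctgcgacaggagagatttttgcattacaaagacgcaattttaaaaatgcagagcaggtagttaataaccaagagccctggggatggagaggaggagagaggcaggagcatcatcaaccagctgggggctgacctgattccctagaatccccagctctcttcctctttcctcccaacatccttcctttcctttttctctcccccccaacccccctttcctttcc

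The Aff3 promoter was 83.3% G or C and held 5 GC boxes, the Ngfr promoter was 71.7% with 4, and the Sned1 promoter was 64.3% with 1. The Astn1 promoter was 50.7% G or C, held no GC box, and had a CpG observed over expected ratio of 0.11, against 1.14 for Aff3. The median over the 9 promoters was 66.7% G or C, against 60.7% over 12873 promoters of genes measured here and 52.7% over all 32851 promoters in the table. Their median CpG ratio was 0.74, and that of the measured genes' promoters was also 0.74. On either strand, the GC box was found in 7 of 9 promoters, against 60.7% of the measured genes' promoters and 35.7% of all. The AP-1 motif TGANTCA was found in 2 of 9 (A4galt and the upstream start of Adra1b), against 5.26% of the measured genes' promoters and 7.81% of all. The RUNX core TGTGGT was found in 1 of 9 (Caprin2), against 12.5% and 16.8%, the E-box CACGTG in 0 of 9, against 9.64% and 7.15%, and the TATA box TATAAA in 0 of 9, against 7.70% and 13.6%. Matches of different motifs shared 0 bases in these promoters, and a match describes the sequence alone.

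The deposited intensity of each array was scaled to a common 75th percentile, and a signal under 57.8, the pooled 50th percentile, was taken as the floor below which signals have no order. Where 1 side of a difference lay at the floor, the difference is a bound, written "at least". Each gene was read from its brightest probe set. A gene is called lower or higher at 2-fold, a log2 difference of 1. Differences between the 2 brightest probe sets of a gene gave an error for a log2 difference between media. It was 0.22 at day 6 and 0.24 at day 3 and holds the error between probes alone. The 3′ to 5′ signal ratio of the Gapdh control probe sets was 0.76 to 0.77 on the 4 arrays. The control for the 5′ end of 18S ribosomal RNA was 746 on the osteogenic day 6 array and 5202 to 9162 on the other arrays, and its part in the day 6 values was not tested.

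At day 6 all 10 genes were lower in osteogenic medium by 2-fold or more, where 2.78% of 11888 measured genes were. At day 3, 7 of the 10 were lower by 2-fold or more, where 1.55% of 11835 were. The other 3, Tspan13, Astn1 and Caprin2, were lower at day 3 by less. Since this contrast chose the genes, nothing is read from these shares. Read as 2-fold, the label of strongly lowered genes fitted 10 genes at day 6 and 7 at day 3. The median log2 difference of the 10 was -1.91 at day 6 and -1.12 at day 3, with bounds taken at their value, against 0.012 and 0.009 over all measured genes. Of the 10, 7 were lower by 2-fold at both days, out of 50 such genes, or 0.444% of 11256 measured at both.

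**Figure D1:**
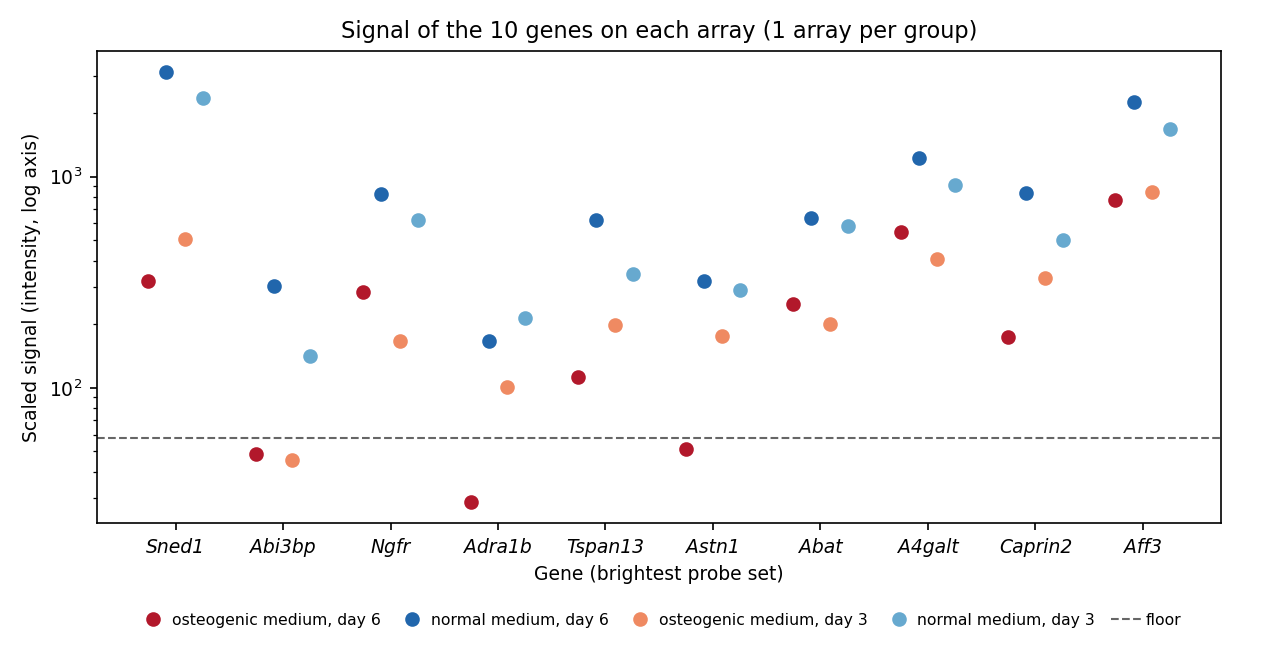
Scaled signal (log axis) of the brightest probe set of each of the 10 genes, with 1 point for each array and the floor of 57.8 as a dashed line. At each day every gene's osteogenic point lies below its normal medium point, and Abi3bp, Adra1b and Astn1 have osteogenic points under the floor.

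Among the matrix genes, Sned1 had the lowest log2 difference of the 10 at both days. It encodes a secreted glycoprotein with sushi, nidogen and EGF-like domains. Its signal was 321 in osteogenic and 3118 in normal medium at day 6, and 505 in osteogenic and 2343 in normal medium at day 3. Both osteogenic signals lay far under both normal medium signals. The fold was 9.73 lower at day 6 (log2 difference -3.28) and 4.64 lower at day 3 (-2.21), from a single probe set.

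Abi3bp encodes a secreted matrix protein that binds the adaptor ABI3. Its brightest probe set, 1427054_s_at, whose suffix marks probes that can match more than 1 transcript, had a signal of 48.4 in osteogenic and 304 in normal medium at day 6. At day 3 it had 45.4 in osteogenic and 142 in normal medium. Both osteogenic signals lay under the floor, so Abi3bp was at least 5.25-fold lower at day 6 and at least 2.46-fold lower at day 3. Its other probe set passed the floor on 1 array, with 98.0 in normal medium at day 6 and 9.48 in osteogenic medium. The size of the Abi3bp difference followed the floor. A floor at the 60th percentile gave it a log2 difference of -1.34 at day 6 and -0.25 at day 3. Averaging its probe sets gave -0.65 at day 3, so the day 3 call was lost under both.

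Ngfr encodes the low-affinity neurotrophin receptor, which binds neurotrophins and is a marker of neural crest derived cells. Its signal was 284 in osteogenic and 828 in normal medium at day 6, and 166 in osteogenic and 622 in normal medium at day 3. It was 2.91-fold lower at day 6 and 3.74-fold lower at day 3. A further probe set, 1450177_at, was under the floor on both osteogenic arrays, with 148 in normal medium at day 6 and 86.8 in normal medium at day 3. The third was under the floor on all 4 arrays, and averaging the probe sets brought the log2 difference to -0.97 at day 6 and -0.83 at day 3, short of 2-fold.

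Adra1b encodes an alpha-1 adrenergic receptor, which signals to phospholipase C through Gq proteins when noradrenaline binds. Its probe set had a signal of 28.9 in osteogenic and 166 in normal medium at day 6. At day 3 it had 101 in osteogenic and 213 in normal medium. It was at least 2.88-fold lower at day 6, where the osteogenic signal lay under the floor, and 2.10-fold lower at day 3. Its signals were close to the floor, and the day 6 log2 difference was -0.48 under a floor at the 60th percentile and -2.53 with no floor. At day 3 the difference was -0.83 with that floor and -0.87 with the pseudocount, both short of 2-fold.

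Tspan13 encodes a tetraspanin, a membrane protein that organises other proteins into microdomains. Its signal was 112 in osteogenic and 624 in normal medium at day 6, and 198 in osteogenic and 344 in normal medium at day 3. It was 5.55-fold lower at day 6 and 1.74-fold lower at day 3. Its probe sets gave the same direction and different sizes. The other, 1460239_at, had 104 in osteogenic and 236 in normal medium at day 6, a log2 difference of -1.18 against -2.47. The gap of 1.29 was larger than the probe error, while at day 3 both probe sets gave close to the same value, -0.81 and -0.80.

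Astn1 encodes astrotactin, an adhesion protein of neurons that migrate along glia. Its signal was 51.2 in osteogenic and 319 in normal medium at day 6, and 176 in osteogenic and 290 in normal medium at day 3. Only the osteogenic day 6 array was under the floor, so Astn1 was at least 5.51-fold lower at day 6 and 1.65-fold lower at day 3. With the floor at the 60th percentile the day 6 log2 difference was -1.41.

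Of the enzyme genes, Abat encodes GABA transaminase, the mitochondrial enzyme that breaks down the transmitter GABA. Its signal was 249 in osteogenic and 633 in normal medium at day 6, and 201 in osteogenic and 581 in normal medium at day 3. It was 2.54-fold lower at day 6 and 2.89-fold lower at day 3. Its other probe set was under the floor on all 4 arrays. Averaging both gave log2 differences of -0.67 at day 6 and -0.77 at day 3, short of 2-fold.

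A4galt encodes the galactosyltransferase that makes globotriaosylceramide, the founding lipid of the globo series. Its single probe set had a signal of 545 in osteogenic and 1228 in normal medium at day 6, and 406 in osteogenic and 909 in normal medium at day 3. The difference hardly depended on the day, with A4galt 2.25-fold lower at day 6 and 2.24-fold lower at day 3.

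Caprin2 encodes an RNA granule protein that also binds the WNT co-receptors. Its signal was 173 in osteogenic and 837 in normal medium at day 6, and 330 in osteogenic and 498 in normal medium at day 3. It was 4.83-fold lower at day 6 and 1.51-fold lower at day 3, the smallest day 3 difference of the 10.

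Aff3 encodes a nuclear protein of the AF4/FMR2 family, whose members act in transcription elongation. Its signal was 772 in osteogenic and 2266 in normal medium at day 6, and 841 in osteogenic and 1683 in normal medium at day 3. It was 2.94-fold lower at day 6 and 2.00-fold lower at day 3, at the limit of the 2-fold call, and -0.98 on the log2 scale with arrays shifted to a common median. Its other probe set, 1430435_at, had 162 in osteogenic and 298 in normal medium at day 6 and 160 in osteogenic and 375 in normal medium at day 3, log2 differences of -0.88 and -1.23.

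In the order of the day 6 differences measured on both sides, Sned1 (-3.28) was followed by Tspan13 (-2.47), Caprin2 (-2.27), Aff3 (-1.55), Ngfr (-1.54), Abat (-1.35) and A4galt (-1.17). Sned1 lay beyond the probe error of a gap, 0.31, from Tspan13, while the last 4 lay within it of their neighbours. The gap of 0.72 between Caprin2 and Aff3 was also beyond it, though the other probe set of Tspan13 (-1.18) would place that gene with the last 4. Astn1 (at least -2.46), Abi3bp (at least -2.39) and Adra1b (at least -1.52) are bounds and have no settled place. At day 3, where the error of a gap was 0.34, Sned1 (-2.21) and Ngfr (-1.90) lay within it of each other. So did neighbours among A4galt (-1.16), Adra1b (-1.07), Aff3 (-1.00), Tspan13 (-0.80), Astn1 (-0.72) and Caprin2 (-0.60). Abat lay between these groups at -1.53, and Abi3bp (at least -1.30) has no settled place.

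**Figure D2:**
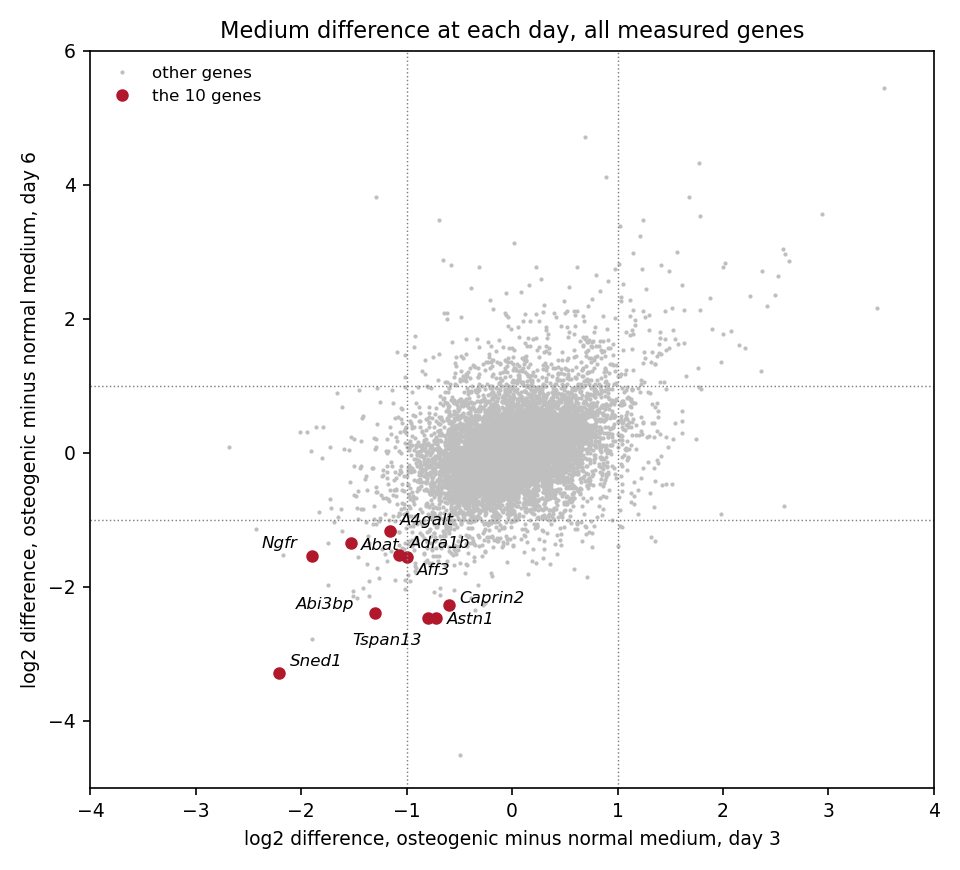
Log2 difference of osteogenic minus normal medium at day 6 (vertical axis) against day 3 (horizontal axis) for each gene measured at both days, with the 10 genes in red and dotted lines at 2-fold. All 10 lie below the line at -1 on the day 6 axis, and Tspan13, Astn1 and Caprin2 lie right of the line at -1 on the day 3 axis.

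The days were then compared within each medium. These comparisons use the same 4 arrays as the medium differences that chose the genes, so their values are set side by side without a test. In osteogenic medium, 1 of the 9 genes measured there was lower at day 6 than at day 3 by 2-fold or more, Astn1 (log2 difference at least -1.61), where 2.62% of 11925 genes were, and 0 were higher by 2-fold, where 3.65% of genes were. Sned1 (-0.66), Tspan13 (-0.81) and Caprin2 (-0.93) were lower at day 6 by less than 2-fold. Adra1b was lower by a log2 difference of at least -0.81, a bound that does not settle whether it passed 2-fold. It was at -1.51 under a floor at the 40th percentile and at 0.00 under one at the 60th. Ngfr (0.77), A4galt (0.42) and Abat (0.31) were higher at day 6 by less than 2-fold, Aff3 was at -0.12, and Abi3bp was under the floor on both arrays. In normal medium, Abi3bp was higher at day 6 by 2-fold or more (1.09, with 304 at day 6 and 142 at day 3), where 0.742% of 11723 genes were. Of the other genes, 8 lay above zero, from 0.12 for Abat to 0.86 for Tspan13. Adra1b lay at -0.35. Over all genes measured in normal medium 47.8% lay above zero. Of the 9 genes measured between days in both media, 5 lay above zero in normal and below zero in osteogenic medium. They were Sned1, Tspan13, Astn1, Caprin2 and Aff3, where 20.4% of 11181 genes had these signs. The other probe set of Aff3 had the reverse signs (0.02 in osteogenic and -0.33 in normal medium). The probe error of a log2 difference between days was 0.24 in osteogenic and 0.21 in normal medium, so the values of Abat (0.12) and Astn1 (0.14) in normal medium and of Aff3 in osteogenic medium lay within it.

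**Figure D3:**
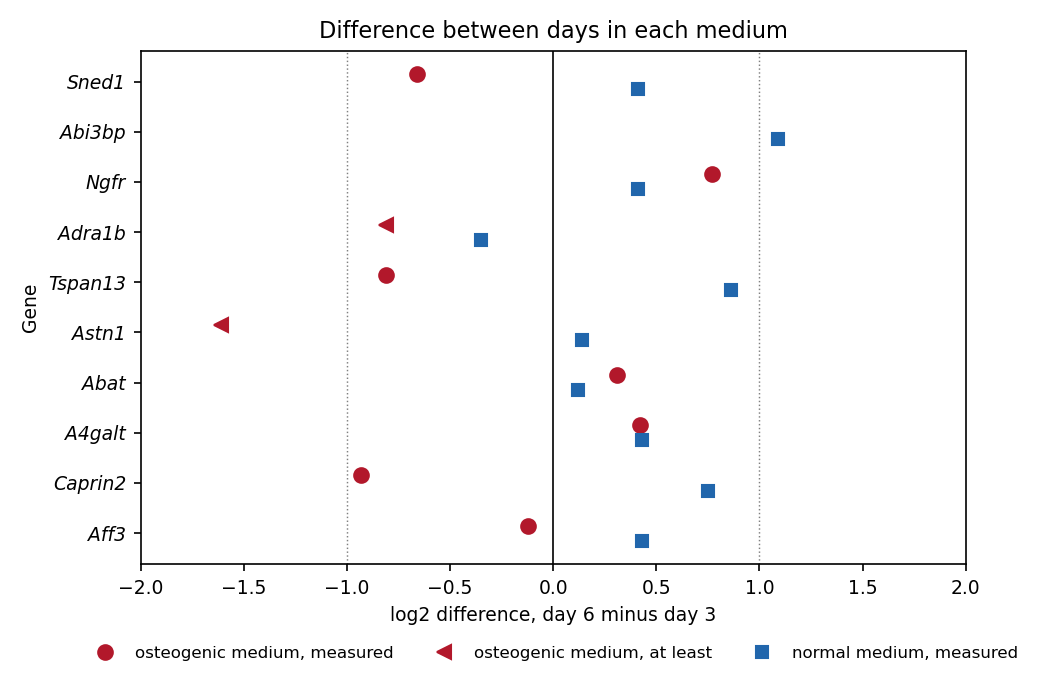
Log2 difference of day 6 minus day 3 for each gene, in osteogenic medium (red, with a triangle where the day 6 signal was under the floor) and in normal medium (blue), with dotted lines at 2-fold. Sned1, Tspan13, Astn1 and Caprin2 lie left of zero in osteogenic medium and right of zero in normal medium, while Ngfr, Abat and A4galt lie right of zero in both, and Abi3bp has no osteogenic point because both signals were under the floor.

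The medium difference itself changed by a log2 of 1 or more between days for 5 of the 10 genes, each further below zero at day 6, where 3.21% of 11256 genes did. In the other direction 0 of the 10 did, where 4.47% of genes did. This change is built from the medium differences that chose the genes, so nothing is read from the shares given for it. The 5 genes were Astn1 (at least -1.74), Tspan13 (-1.68), Caprin2 (-1.68), Abi3bp (-1.09) and Sned1 (-1.07). The change of Astn1 was -0.70 under a floor at the 60th percentile, and that of Abi3bp was -0.89 with the pseudocount and -0.93 with averaged probe sets, each short of the limit. Over the 8 alternatives the count was 4 to 6. For 4 of the 5, Abi3bp left aside, the day differences also had opposite signs in the media, where 5.46% of 11181 genes met both conditions. For Abi3bp the change equals its day difference in normal medium, as both osteogenic signals were at the floor. For Tspan13 the other probe set gave -0.37, so the size rests on 1 probe set. A4galt (-0.01) and Abat (0.19) changed by less than the probe error of 0.33, and Ngfr (0.36), Adra1b (at least -0.46) and Aff3 (-0.55) by more. The sign was not stable for Ngfr, at -0.14 with averaged probe sets and -0.77 for its probe set 1450177_at, or for Adra1b, at 0.35 under a floor at the 60th percentile. The probe sets of Aff3 differed in sign, the other giving 0.35, and they also differed in sign for the day difference in normal medium (0.43 and -0.33).

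The closest pair of profiles over the 4 arrays, each gene taken relative to its own mean, was Tspan13 and Caprin2, at a Euclidean distance of 0.23 on the log2 scale. Signals under the floor were set to it for all such distances. The next pair was Abat and A4galt at 0.36, and the farthest was Sned1 and A4galt at 1.76. For Tspan13 the profile was that of its brightest probe set, and the other gave a day 6 medium difference of -1.18 against -2.47. Among 10658 other genes above the floor on both normal medium arrays, the profiles nearest the mean of the 10 were those of Loxl1 (distance 0.20), Fat4 (0.20), Cmbl (0.23), Chst2 (0.24) and Enpep (0.30). Loxl1, a lysyl oxidase family enzyme of elastic fibres, had a signal of 1349 in osteogenic and 4455 in normal medium at day 6, and 1512 in osteogenic and 3664 in normal medium at day 3. Fat4, a large protocadherin, had 305 in osteogenic and 1272 in normal medium at day 6, and 356 in osteogenic and 1014 in normal medium at day 3. All 5 of these genes were thus lower in osteogenic medium at both days, Enpep at day 3 by less than 2-fold (-0.97).

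For the single genes, the nearest profile to Adra1b was that of the microtubule protein gene Map1b (0.12), to Aff3 that of Masp1 (0.13), to Abat that of Uggt2 (0.16) and to A4galt that of Fbxw17 (0.18). The nearest to Caprin2 was Gfra2 (0.22), a receptor of the GDNF ligand family, to Astn1 the amine oxidase gene Aoc3 (0.27) and to Ngfr Plekha6 (0.32). Abi3bp was nearest to Pid1 (0.36), Tspan13 to Tnnt1 (0.36) and Sned1 to the aldehyde dehydrogenase gene Aldh3a1 (0.43). The match of Tspan13 rests on its brightest probe set alone. For Adra1b, Astn1 and Abi3bp the profile matched holds osteogenic signals set to the floor, so their nearest genes and distances rest on that setting. A likeness over 4 single arrays is a description.

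Genes that work with the 10 or share their families were read from 9 lists with 146 entries, of which 124 genes were matched on the array. At day 6, 4 of 96 measured genes were lower by 2-fold (4.17%, against 2.78% of all genes) and 11 were higher (11.5%, against 4.10%). At day 3, 3 of 101 were lower (2.97%, against 1.55%) and 3 higher (2.97%, against 1.97%). Their median log2 difference was -0.016 at day 6 and -0.084 at day 3. The lists were drawn up with earlier results of these data known, so nothing is read from these shares and medians.

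In the neurotrophin system, the partners of Ngfr, 0 of 15 measured genes were lower and 3 were higher at day 6. The ligand gene Bdnf had a signal of 226 in osteogenic and 101 in normal medium at day 6, a log2 difference of 1.16. The receptor gene Ntrk2 (1.39) and the ligand gene Ntf5 (at least 1.10) were the others. Ntrk2 had 58.3 in normal medium at day 6, close to the floor, and lay at -0.18 at day 3. At day 3 the receptor gene Ntrk3 (-1.08) and Sorcs2 (-1.04), a sortilin family receptor, were lower, and Sorcs3 (at least 1.18) was higher. Ntrk3 lay at -0.94 at day 6.

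Among the genes around A4galt, 1 of 11 measured genes of the globo-series list was lower at day 6, St3gal5, which encodes the sialyltransferase that takes the same precursor, lactosylceramide, into gangliosides. Its signal was 481 in osteogenic and 1088 in normal medium at day 6, and 587 in osteogenic and 1233 in normal medium at day 3, log2 differences of -1.18 and -1.07. St3gal5 was also among the 50 genes lower at both days. Gla, which encodes the lysosomal enzyme that degrades globotriaosylceramide, was higher, with 692 in osteogenic and 297 in normal medium at day 6 (1.22) and 0.98 at day 3. B4galt5, which encodes a lactosylceramide synthase, lay at 0.65 at day 6 and 0.22 at day 3.

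Around Abat, 1 of 5 measured genes of GABA metabolism and reception passed 2-fold at day 6, the taurine transporter gene Slc6a6 (1.58). Aldh5a1, the enzyme gene after Abat in GABA breakdown, lay at -0.53 at day 6 and -0.19 at day 3, and Gad1, the GABA synthesis gene, was under the floor on all 4 arrays. Around Adra1b, 0 of 6 measured genes, Gnaq, Gna11, Plcb1, Plcb3, Plcb4 and Rgs2, which act downstream of such receptors or limit their signal, passed 2-fold at either day, with medians of -0.39 at day 6 and -0.31 at day 3. Gnaq, the gene of a G protein it couples to, lay at -0.57 and -0.52. The 1 other adrenergic receptor gene matched, Adra2c, was under the floor on all 4 arrays.

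Of 16 tetraspanin genes measured at day 6, Tspan5 (1.78), Tspan11 (1.58) and Tspan4 (1.08) were higher and Tspan18 (-1.00) was lower. The median of the 16 was 0.17, with genes on both sides of zero. Tspan13 was chosen for its lower signal in osteogenic medium, so nothing is read from its sign beside these genes. Tspan5 was also higher at day 3 (1.15), and its normal medium signal at day 6, 60.2, was close to the floor. Cd9 lay at 0.22 at day 6 and 0.19 at day 3. In the AFF and elongation list 1 of 9 genes, Ell (1.18), passed 2-fold at day 6, and Aff1 lay at -0.03 at day 6 and -0.52 at day 3. In the list of Caprin1 and the WNT co-receptor genes 0 of 15 passed 2-fold at either day, and Caprin1 itself lay at -0.10 at day 6 and -0.13 at day 3. Of 4 measured adhesion genes around Astn1 at day 6 and 7 at day 3, 0 passed 2-fold, and Astn2 was under the floor on all 4 arrays.

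Of 15 matrix genes measured at day 6 around Sned1 and Abi3bp, the basement membrane gene Nid2 (-1.42) and the integrin gene Itga8 (-1.10) were lower. The matrix gene Tnc (2.12) and the integrin gene Itgb8 (1.61) were higher. At day 3 Itgb8 was the only one of 14 past 2-fold (2.15). Its signal was then 273 in osteogenic and 61.8 in normal medium, the second close to the floor. The fibronectin gene Fn1 lay at 0.10 at day 6 and -0.39 at day 3.

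**Figure D4:**
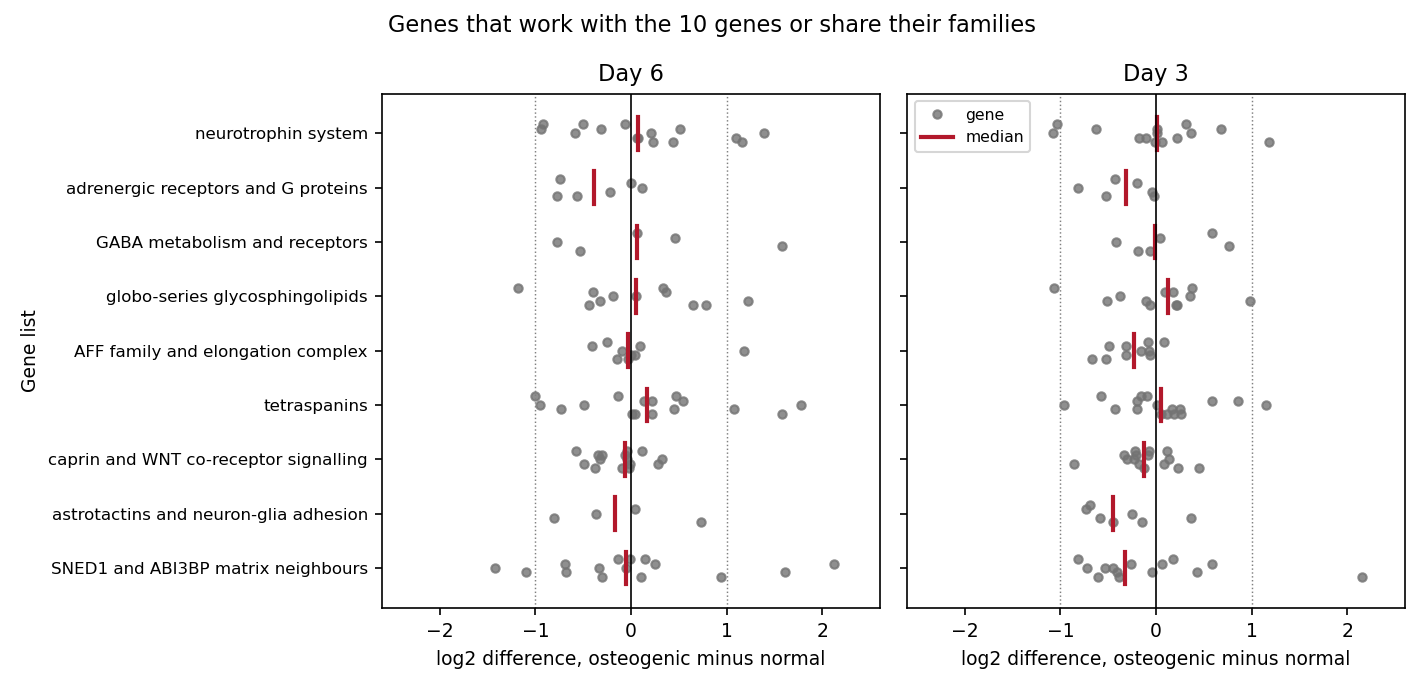
Log2 difference of osteogenic minus normal medium at day 6 (left) and day 3 (right) for each measured gene of 9 lists of partners and family members, with the list's median as a red bar and dotted lines at 2-fold. The medians lie between -0.45 and 0.17, and St3gal5 is the 1 gene of these lists below -1 at both days.

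The labelled cell type was checked by markers. Of 8 osteoblast markers matched, of 11 listed, Sp7, Alpl, Ibsp, Dmp1, Col1a1, Col1a2 and Sparc were above the floor on all 4 arrays, and Phex on the osteogenic arrays alone. Ibsp (5.44 at day 6 and 3.53 at day 3), Dmp1 (2.97 and 2.59) and Alpl (1.70 and 1.55) were higher in osteogenic medium, as was Phex (at least 3.00 and at least 1.56), while Col1a1 lay at 0.03 and -0.21. Ngfr, Adra1b and Astn1 are also genes of neural cells. Of 9 neuron markers, 6, Snap25, Syt1, Nefl, Nefm, Stmn2 and Elavl3, were under the floor on all 4 arrays. The summed signal of all 9 was 434 in osteogenic and 345 in normal medium at day 6, and 548 in osteogenic and 278 in normal medium at day 3. In osteogenic medium at day 6 most of it was Tubb3 (180) and Map2 (105). In normal medium at day 6 Tubb3 had 56.6, under the floor, and Map2 had 88.3. The sums take in signals under the floor, which have no order. Rbfox3 had 19.3 in osteogenic and 77.8 in normal medium at day 6, and 84.7 in osteogenic and 12.7 in normal medium at day 3.

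Of 6 Schwann cell and neural crest markers, Foxd3, Erbb3 and Pou3f1 were under the floor on all arrays, and Sox10 passed it on 1, with 92.8 in normal medium at day 3. The summed signal of the list was 1700 in osteogenic and 3881 in normal medium at day 6, and 2165 in osteogenic and 2330 in normal medium at day 3. Most of it was S100b, with 1553 in osteogenic and 3773 in normal medium at day 6. Of 7 fibroblast markers, Pdgfra (-1.36 at day 6 and -0.99 at day 3) and Dcn (-1.36 and -0.44) were lower by 2-fold at day 6. Lum (0.07 and 1.08), Col3a1 (0.00 and 0.08), S100a4 (-0.18 and -0.13) and Pi16 (at least 0.50 at day 6) were not. Dpt was under the floor on all arrays, and the median of the 6 measured at day 6 was -0.09. The list's summed signal was 108141 in osteogenic and 135266 in normal medium at day 6, and 130636 in osteogenic and 126885 in normal medium at day 3. Of 7 chondrocyte markers, Col2a1 was higher in osteogenic medium (2.28 at day 6 and 1.12 at day 3), and Acan, Matn1, Hapln1 and Comp were under the floor on all arrays. The list's summed signal was 6319 in osteogenic and 2686 in normal medium at day 6, and 4009 in osteogenic and 2882 in normal medium at day 3. Of 7 smooth muscle markers, Lmod1 was lower at day 6 (-1.51, and -0.84 at day 3), Des was higher at day 6 (164 in osteogenic and 20.3 in normal medium, the second under the floor) and Cnn1 higher at day 3 (1.98, and -0.91 at day 6), while Myh11 was under the floor on all arrays. Their summed signal was 49431 in osteogenic and 52117 in normal medium at day 6, and 67163 in osteogenic and 62618 in normal medium at day 3. The part of these markers in the differences of the 10 genes was not tested, and fewer cells of a type and less RNA per cell cannot be told apart in such bulk samples.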

How the data were processed

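The deposited values are linear intensities, 1 for each probe set on each of 4 arrays, which the authors had scaled to a common level. No detection calls came with them. The software that summarised probes is not given in the sources used here. RNA was labelled with a 3′ in vitro transcription kit, per the labels' protocols.

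Of 45101 probe sets, 64 controls were left out. GEO's annotation gave 34945 probe sets 1 gene symbol, 932 several and 9160 none. Of the named ones, 34741 matched RefSeq (GRCm38.p6) by Entrez ID. Arrays were scaled to a common 75th percentile (factors 0.988 to 1.019), floored at the pooled 50th percentile and put on a log2 scale with Python 3.11.15 and pandas 2.3.3. A gene was read from the probe set of highest mean log2 signal and counted as measured where 1 or more of the arrays compared passed the floor. With 1 array per group no test was run, and the number of arrays limits the precision. The steps were tested on simulated data with changes placed in genes well above the floor, so that test does not cover signals near it.

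The 10 genes and the partner lists were chosen with earlier results of these data known. Named were all 10 genes, list genes past 2-fold between media (up to 6 per list) with each list's leading partner, and nearest profiles. Genes named as under the floor, near the 2-fold limit or as markers were added for description. The 8 alternatives were 3 scalings, floors at the 40th and 60th percentile, no floor, a pseudocount of 32, and averaged probe sets.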

Additional observations from a re-analysis of the deposited data

Results flagged for a closer look

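Of the 9 genes measured between days in both media, 4 met both conditions set here. Day 6 minus day 3 had opposite signs in the media, and the medium difference changed by a log2 of 1 or more, where 5.46% of 11181 genes met both conditions. The same arrays chose the 10 genes, so nothing is read from this share. Sned1 was at -0.66 in osteogenic and 0.41 in normal medium, a change of -1.07. Tspan13 was at -0.81 in osteogenic and 0.86 in normal medium, a change of -1.68. Caprin2 was at -0.93 in osteogenic and 0.75 in normal medium, also a change of -1.68. Astn1 was at least -1.61 in osteogenic and 0.14 in normal medium, a change of at least -1.74, and its normal medium value lay within the probe error. Under a floor at the 60th percentile the change of Astn1 was -0.70, short of that limit. The difference between media in these day effects was not tested, as each rests on 4 single arrays. Aff3 had the same pattern of signs with smaller values in its brightest probe set, where the osteogenic value of -0.12 lay within the probe error. Its other probe set had the reverse signs, 0.02 in osteogenic and -0.33 in normal medium.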

How the results depend on the processing

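The 10 genes kept a log2 difference below zero between media at both days under all 8 alternatives, the nearest to zero being -0.25, for Abi3bp at day 3. Of the 160 such values, 139 moved by less than the probe error and 21 by more, with 0 reversals. At day 6 the count of the 10 genes lower by 2-fold ranged from 8 to 10. At day 3 it ranged from 4 to 7, against 7 in the main setting. The count was 4 with averaged probe sets, which takes in probe sets under the floor. It was 5 under a floor at the 60th percentile and with the pseudocount, and 6 with arrays shifted to a common median. Between days in osteogenic medium the count of lower genes was 2 under a floor at the 40th percentile, without a floor and with the pseudocount, and 0 under a floor at the 60th, against 1. In normal medium the count of higher genes was 0 with the pseudocount and with the mean of probe sets, against 1. Over all genes, the count lower at day 3 was 347 under a floor at the 40th percentile, 91 under one at the 60th, 2084 with no floor and filter and 97 with the mean of probe sets, against 184. At day 6 it was 2195 with no floor and filter and 211 with the mean of probe sets, against 330. At both days it was 77 under a floor at the 40th percentile, 562 with no floor and filter and 24 with the mean of probe sets, against 50. Partner and family genes past 2-fold in either direction at day 6 numbered 30 with no floor and filter, against 15. Signals near the floor limit Abi3bp, Adra1b and Astn1. No paired analysis was possible because each group holds 1 array.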
